A study of Mus musculus with 6 samples.

Results

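The small nucleolar RNAs (snoRNAs) and small Cajal body RNAs were examined in C2C12 cells that had been depleted of the long noncoding RNA H19. They were taken as every probe set that the array's annotation gives a single symbol beginning with Snora, Snord or Scarna. There were 60 such probe sets among 35556, for 54 symbols. Box C/D RNAs (Snord) made up 33 of them, box H/ACA RNAs (Snora) 23 and Cajal body RNAs (Scarna) 4. C2C12 is an established, wild-type line of mouse myoblasts, which fuse into myotubes once serum is reduced. The cells received either a control siRNA or an siRNA against mouse H19 on day 1 of differentiation, and total RNA was collected 40 h later. Each of the 2 groups had 3 Affymetrix whole-transcript arrays, and both came from the same line, medium and time. The transfections were made in triplicate, but no source states that the triplicates were separate cultures. The p-values therefore reflect the scatter among these arrays, and that scatter may be technical. With RNA from whole wells, fewer cells of a type and less RNA per cell cannot be told apart.

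SnoRNAs are short, stable RNAs that pair with other RNAs and direct their chemical modification. Box C/D RNAs carry the methyltransferase fibrillarin and guide ribose methylation, whereas box H/ACA RNAs carry the pseudouridine synthase dyskerin and guide the conversion of uridine to pseudouridine. Most act on ribosomal RNA, a few are needed to cut the ribosomal precursor, and the Cajal body RNAs act on the RNAs of the spliceosome. In mammals nearly all are cut out of introns of host genes, many of which encode ribosomal proteins or are noncoding RNAs with no other known product. A probe set that lies in such an intron can bind the mature snoRNA and its unspliced host alike, and the values do not separate them.

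Host genes of this kind often start within a run of pyrimidines. Of the 10 probe sets with the smallest p, 5 lay within 4 noncoding RNA genes that have 1 start each in the RefSeq promoter table (GRCm38.p6), and those 4 starts are printed because the values below turn on these genes. Each window runs 5′ to 3′ on the gene's strand over 100 bases, 50 on either side of the start. Capitals mark runs of 7 or more consecutive C or T on that strand. Snhg3 (chr4:132353637-132353736, minus strand) spans Snora73a and Snora73b, and Snhg12 (chr4:132308628-132308727, plus strand) spans Snora16a and Snora44. The gene 2410006H16Rik (chr11:62602827-62602926, plus strand) spans Snord49a and Snord49b, and Gm36220 (chr11:106500865-106500964, plus strand) spans Snord104.
Snhg3: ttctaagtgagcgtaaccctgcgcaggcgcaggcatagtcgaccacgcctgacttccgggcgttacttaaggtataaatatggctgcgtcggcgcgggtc
Snhg12: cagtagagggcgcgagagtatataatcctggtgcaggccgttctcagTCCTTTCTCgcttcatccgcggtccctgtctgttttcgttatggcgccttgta
2410006H16Rik: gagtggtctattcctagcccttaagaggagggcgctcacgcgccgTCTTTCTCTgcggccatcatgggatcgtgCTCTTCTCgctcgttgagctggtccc
Gm36220: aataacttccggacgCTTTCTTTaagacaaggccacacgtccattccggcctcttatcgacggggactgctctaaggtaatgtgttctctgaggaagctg
Snhg12 held a run of 9 bases beginning at -3 from its start, and 2410006H16Rik held 2 runs, the longest of 9 bases. Gm36220 held a run of 8 bases beginning at -35, and the Snhg3 window held 0 runs of this length. Of all 32851 windows of the same length, 50.32% held such a run. Gas5, the noncoding host of Snord47, has 2 starts in that table. They are not printed, and both of their windows held 0 runs. The snoRNAs and Cajal body RNAs have 12 noncoding hosts, of which 8 had a window and 6 held a run. The letters TATAA, searched on both strands and overlapping no capitalised run, began at -30 in Snhg12 and at 23 in Snhg3, and 9.257% of all windows held them. In Gas5, 1 of the 2 windows held them, on the opposite strand. These are matches of letters and not measured sites.

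H19 itself has no probe set listed under its own symbol. A probe set shared by Supt6 and Mir675, a microRNA that H19 hosts, stood in for it (10569341). With control siRNA it read 12.21, 12.22 and 12.27, and with H19 siRNA 10.38, 10.28 and 10.37, so its log2 signal fell by 1.89 (limma adjusted p = 0.0004). The 6 arrays correlated at 0.9958 to 0.9975 across all probe sets, and H19 siRNA replicate 2 had the lowest mean correlation with the others, 0.9962. All 10 myoblast and myotube markers lay above the median of all probe sets. Their summed linear signal was 22070 to 22260 on control and 24160 to 24990 on H19 siRNA arrays, with 0 of the 10 passing the test. At an unadjusted limma p under 0.05, 7 of the 10 were higher with H19 siRNA and 0 lower. The shares of all probe sets were 4.97% and 3.66%. The summed signal of 5 macrophage markers was 423 to 446 and 402 to 409, and 4 of them were dim, as were all 4 endothelial, 3 of 4 adipocyte and 3 of 4 neuron markers. The part of these shifts in the snoRNA values was not tested.

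No snoRNA or Cajal body RNA differed between the groups at the threshold used. By limma with Benjamini-Hochberg adjustment over all probe sets, 0 of the 60 passed an adjusted p of 0.05, against 0.0309% of all 35556 probe sets (0.0169% higher and 0.0141% lower). The smallest adjusted p among the 60 was 0.438. At an unadjusted limma p under 0.05 there were 8, of which 1 was higher and 7 lower with H19 siRNA, and 5 of the 7 were box H/ACA RNAs. The share of all probe sets at that level was 4.97% higher and 3.66% lower, 8.63% in either direction. This count of 8 was 2, 5 and 5 without control replicate 2, 1 and 3, which also leaves fewer degrees of freedom. The share of all probe sets in those fits was 6.29%, 6.86% and 7.25%.

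The values lay mostly slightly below the controls, and 1 array carried much of this. The log2 difference, H19 siRNA minus control, was negative for 42 of the 60 (70%), against 42.9% of all probe sets. Its median was -0.0472, against 0.0141 for all probe sets. H19 siRNA replicate 2 was the lowest of the 6 arrays for 41 of the 60, and each of the other arrays was lowest for 1 to 5. Measured from each probe set's control mean, the median of the 60 was -0.0303, -0.116 and -0.0051 on the 3 H19 siRNA arrays. Without replicate 2 the difference was negative for 34 of 60, and the median was -0.0166. The median of all probe sets was then 0.0175. Of all probe sets that were not dim, 40.1% were then negative, against 47% with all arrays. The same array also stood low among all probe sets that were not dim, of which 42.2% lay below every control on it, against 25.8% on replicate 1 and 20.3% on replicate 3. For the 44 members that were not dim these shares were 68.2%, 38.6% and 34.1%.

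**Figure D1:**
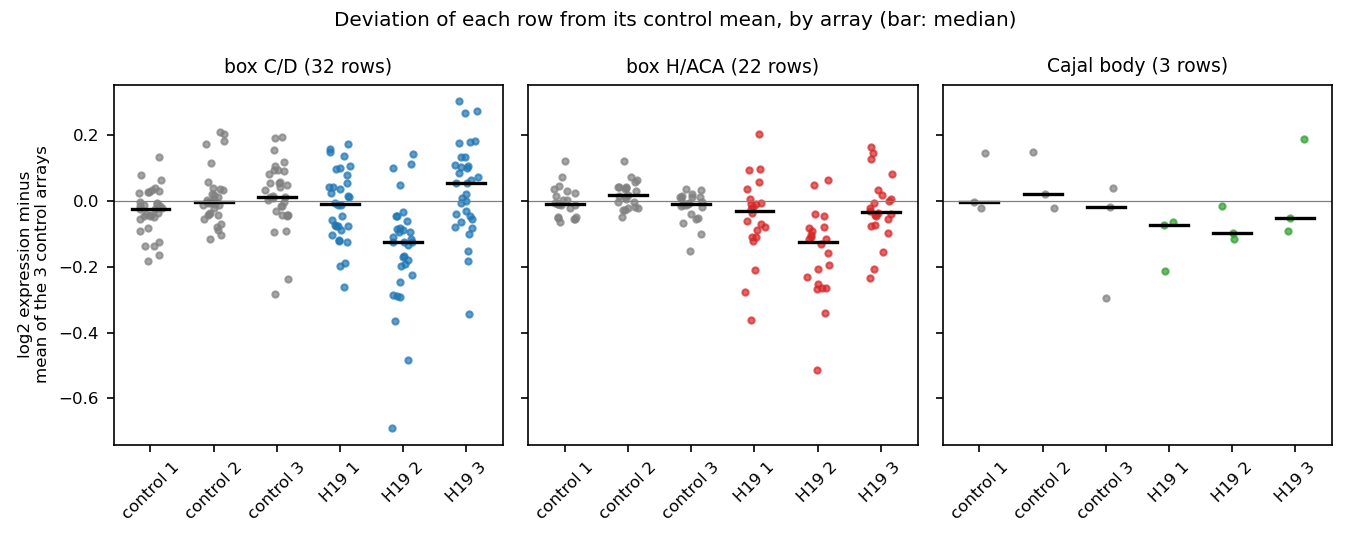
Each point is the log2 signal of 1 distinct snoRNA or Cajal body RNA probe set on 1 array minus that probe set's mean over the 3 control arrays, by class, with a bar at the median. On H19 siRNA replicate 2 most points lie below 0 in the box C/D and box H/ACA classes, and on the other H19 siRNA arrays they lie nearer 0, in the box H/ACA and Cajal body classes mostly below it.

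Most intervals for the difference lay within 0.5 on the log2 scale of 0. They rest on the scatter among these arrays, which may be technical, and so may not bound a difference between cultures. The moderated 95% interval lay within 0.25 on the log2 scale of 0 for 30 of the 57 distinct probe sets, and within 0.5 for 52. The median distance from a difference to its bound was 0.150, and the outermost bounds were -0.71 and 0.50. The median SD between arrays was 0.048 in the control group and 0.098 in the H19 siRNA group.

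The arrays gave 57 distinct profiles, because both probe sets of Scarna17, of Snora30 and of Snord118 carried identical values. Snora3, Snora21 and Snord58b also had 2 probe sets each, which differed by up to 0.0222, 0.235 and 0.116 on any array. Signals of the 60 ran from 5.35 for Snora41 to 13.24 for Snora52, a guide for 28S ribosomal RNA. Such signals depend on the probes and do not rank the RNAs by abundance. Probe sets with a mean under 6.74, the median of all probe sets, were marked dim. This held for 16 of the 60, with 10 of 33 box C/D, 5 of 23 box H/ACA and 1 of 4 Cajal body RNAs. Just under the limit were Snord15a at 6.69 and Snord22 at 6.72, and just above it Snora62 at 6.86 and Snora2b at 7.05. In the RefSeq table the 60 are 45 to 275 nucleotides long, with a median of 68 for box C/D and 125 for box H/ACA.

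**Figure D2:**
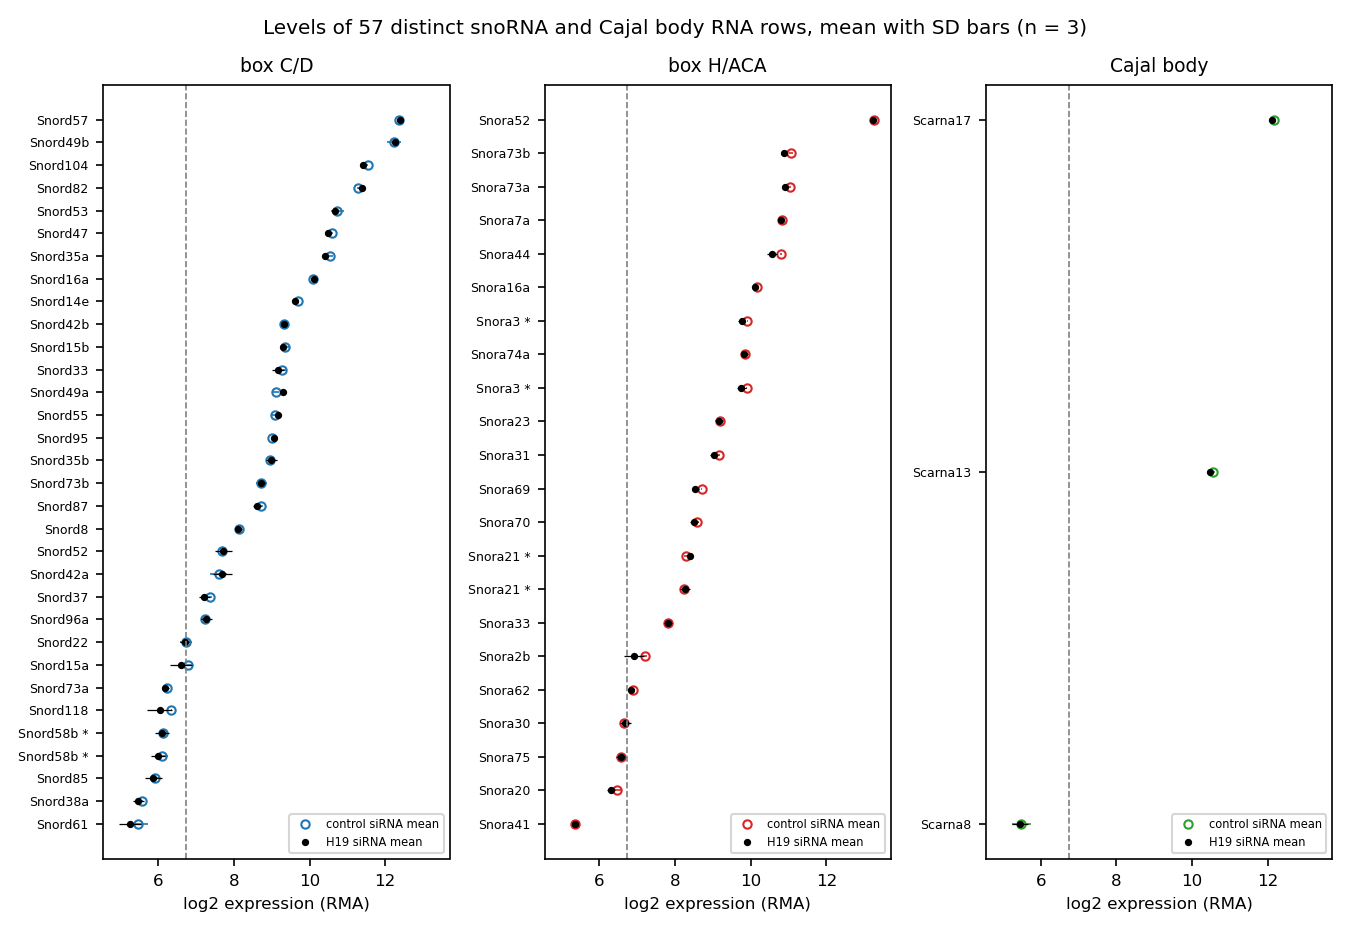
Points are the group means of log2 signal for the 57 distinct probe sets, with the SD over 3 arrays, and the dashed line at 6.74 is the limit for dim probe sets. The 2 group means of most probe sets lie close together, and stars mark symbols with 2 probe sets.

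The box C/D and box H/ACA classes had nearly the same median difference over all their probe sets. It was -0.0458 for box C/D, with 21 of 33 negative, and -0.0544 for box H/ACA, with 17 of 23 negative, a gap of 0.0086. The gap was -0.0375 without H19 siRNA replicate 3 and 0.0366 without control replicate 3, so its sign depended on single arrays. The box C/D median was 0.0011 without H19 siRNA replicate 2 and -0.0999 without replicate 3.

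Above the dim limit the classes lay further apart. Of 18 box H/ACA probe sets that were not dim, 15 were negative with a median of -0.0770, and of 23 box C/D probe sets 11 were negative with a median of 0.00198. Among all probe sets that were not dim, 47% were negative and the median was 0.00536. The groups did not overlap, with every H19 siRNA array below every control array, for 7 of the 18 H/ACA and 2 of the 23 C/D probe sets, against 9.22% of all that were not dim. At an unadjusted limma p under 0.05 and lower were 5 and 2 of them, against 4.68%. The 7 H/ACA probe sets without overlap hold 2 of Snora3, and Snora73a and Snora73b, which are close in sequence. They are therefore not 7 independent RNAs. The gap between the medians, box C/D minus box H/ACA, was 0.0790, and it lay between 0.0538 and 0.105 when any 1 array was left out. Without H19 siRNA replicate 2 the H/ACA median was -0.0539 with 12 of 18 negative and the C/D median 0.0326 with 9 of 23. Probe sets are not replicates, so no test was made of this gap. Among dim probe sets the order turned, with 10 of 10 box C/D negative (median -0.097) and 2 of 5 box H/ACA (median 0.013). Of all dim probe sets 38.9% were negative. The 10 hold 2 identical probe sets of Snord118 and 2 of Snord58b, and the 5 hold 2 identical, positive ones of Snora30. Only 9 and 4 of these profiles were distinct.

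**Figure D3:**
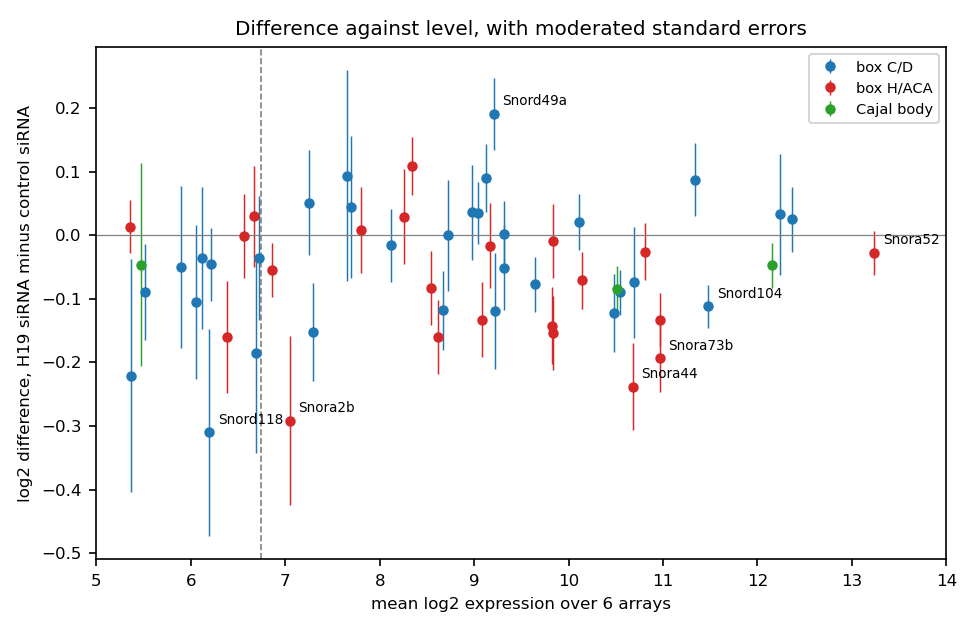
Each point is the log2 difference of 1 distinct probe set, H19 siRNA minus control, against its mean log2 signal, with its moderated standard error, coloured by class. Most box H/ACA points above the dim limit lie below 0, while box C/D points there lie on both sides.

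Of the 5 box H/ACA RNAs that lie in noncoding hosts, 3 were among the 10 with the smallest p, and Snora16a (-0.07) and Snora74a (-0.01) were not. Snora73b (10516906) and Snora73a (10516908), copies of the RNA known as U17 that takes part in processing the precursor of 18S ribosomal RNA, both lie in Snhg3. With control siRNA, Snora73b read 11.01, 11.10 and 11.07, and with H19 siRNA 10.95, 10.80 and 10.85. Every H19 siRNA value was below every control, with a difference of -0.19 (SE 0.05, limma adjusted p = 0.438). Snora73a read 10.98, 11.04 and 11.07 against 10.94, 10.87 and 10.88. The groups did not overlap here either, and the difference was -0.13 (SE 0.04, limma adjusted p = 0.489). The 2 RNAs are close in sequence, so their probe sets may share signal and may not be independent.

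Snora44 (10508721), a guide for 18S ribosomal RNA, lies in Snhg12 beside Snora16a. It read 10.84, 10.78 and 10.79 with control siRNA and 10.52, 10.46 and 10.70 with H19 siRNA. All 3 H19 siRNA arrays were lower, with replicate 3 nearest the controls, and the difference was -0.24 (SE 0.07, limma adjusted p = 0.446). Snora16a, from the same host, had overlapping groups.

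The other box H/ACA RNAs among the 10 lie in ribosomal protein genes. Snora69 (10604076) in Rpl39 read 8.70, 8.71 and 8.69 against 8.49, 8.47 and 8.66, a difference of -0.16 (SE 0.06, limma adjusted p = 0.539). Replicate 3 lay just under the controls and the other 2 H19 siRNA arrays lay well under them. Snora3 in Rpl27a had 2 probe sets. The first (10556206) read 9.90, 9.93 and 9.90 against 9.79, 9.64 and 9.84, a difference of -0.15 (SE 0.06, limma adjusted p = 0.556). The second (10570432) differed by -0.14 (limma adjusted p = 0.598). In both, the H19 siRNA arrays lay below the controls, with replicate 2 lowest. Snora21 in Rpl23 ran the other way on one of its probe sets (10390505), at 8.24, 8.34 and 8.30 against 8.39, 8.36 and 8.46. Every H19 siRNA array was higher, with a difference of 0.11 (SE 0.05, limma adjusted p = 0.589). Its second probe set (10564520) differed by 0.03 with overlapping groups, so the 2 probe sets of this RNA disagree on whether the groups separate.

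Box C/D RNAs among the 10 went both ways. Snord49a (10376887), a guide for 28S ribosomal RNA, read 9.07, 9.07 and 9.19 with control siRNA and 9.27, 9.26 and 9.38 with H19 siRNA. All H19 siRNA arrays were higher, and the difference was 0.19 (SE 0.06, limma adjusted p = 0.459), the largest positive value of the 60. Snord49b, from the same host, differed by 0.03 and its groups overlapped. Snord104 (10382104), in Gm36220 and also a guide for 28S ribosomal RNA, read 11.53, 11.54 and 11.54 against 11.41, 11.40 and 11.46. The groups were apart by a difference of -0.11 (SE 0.03, limma adjusted p = 0.475). Snord47 (10351043), in the noncoding host Gas5, read 10.58, 10.61 and 10.59 against 10.47, 10.50 and 10.54. It was lower on every H19 siRNA array, by a difference of -0.09 (SE 0.04, limma adjusted p = 0.573).

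For each of these 10 probe sets the exact permutation p was 0.1, two-sided, the smallest that 3 against 3 arrays allow. Of all 60, the groups did not overlap for 14, 2 higher and 12 lower, against 9.24% and 6.28% of all probe sets, 15.5% in either direction. The count included both identical Snord118 probe sets. It was 23 without H19 siRNA replicate 1 and 22 without replicate 3, where 24.9% and 27.3% of all probe sets did not overlap.

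**Figure D4:**
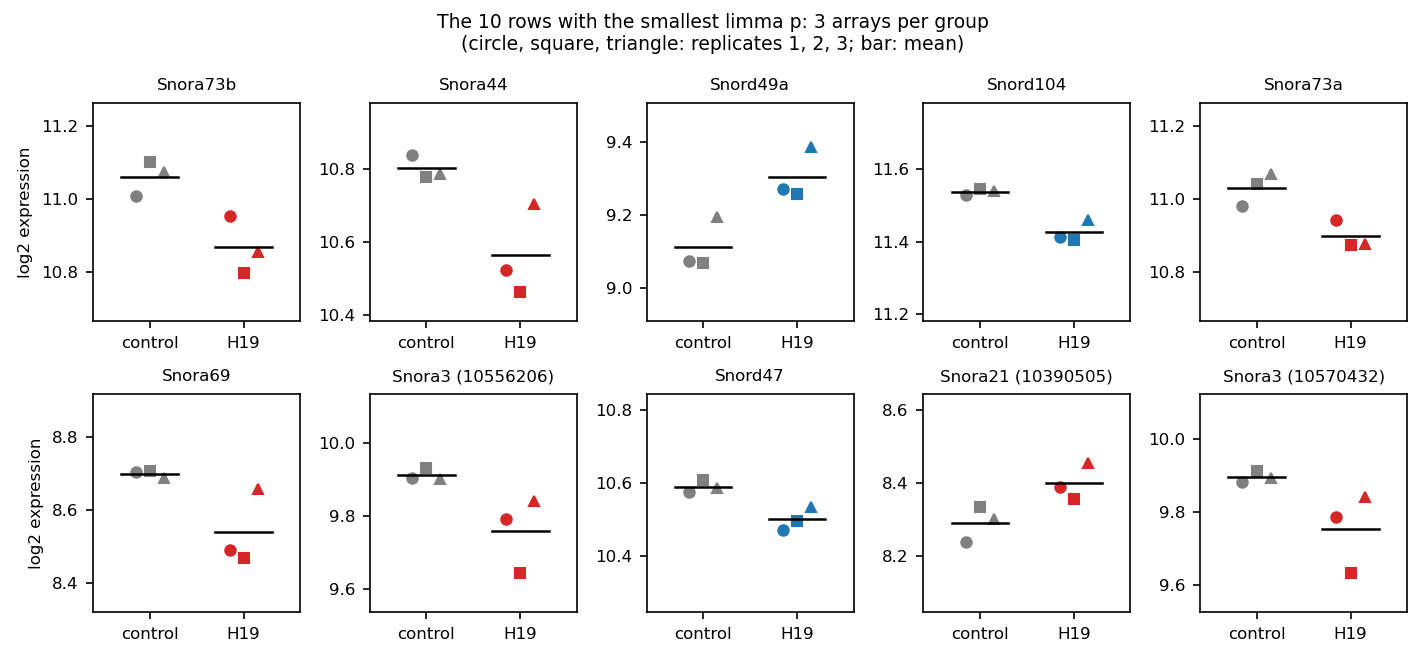
Log2 signal on each array for the 10 snoRNA probe sets with the smallest limma p, control siRNA beside H19 siRNA, each panel spanning 0.6 log2 units. In every panel the 3 H19 siRNA values lie on one side of the 3 control values, below in 8 panels and above in those of Snord49a and of Snora21.

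The widest differences did not have the smallest p. Snord118 (U8), which is needed to process the precursor of the large ribosomal subunit's RNAs, read 6.35, 6.37 and 6.34 with control siRNA and 6.29, 5.66 and 6.17 with H19 siRNA. The groups did not overlap, but replicate 2 lay far under the rest, the probe set was dim, and the difference of -0.31 had a limma adjusted p of 0.66. Snora2b read 7.19, 7.27 and 7.13 against 6.83, 6.68 and 7.19, a difference of -0.29 with a limma adjusted p of 0.624. Its groups overlapped through replicate 3.

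U14 and U22 also take part in cutting the ribosomal precursor, and their groups overlapped. Snord14e, one of the genes for U14, read 9.64, 9.68 and 9.73 with control siRNA and 9.61, 9.56 and 9.66 with H19 siRNA, a difference of -0.08. Snord22 (U22), which is dim, read 6.66, 6.91 and 6.64 against 6.63, 6.63 and 6.84, a difference of -0.04. That overlap came through H19 siRNA replicate 3 in both cases. Snora31, which lies in Tpt1, was, beside the 10, Snord118 and Scarna13, the remaining probe set whose groups did not overlap, at 9.18, 9.13 and 9.15 against 9.08, 8.90 and 9.08 and a difference of -0.13 (limma adjusted p = 0.61).

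Other box C/D and H/ACA RNAs with high signals had overlapping groups. Among box C/D RNAs these were Snord57 (0.03), a guide for 18S ribosomal RNA in Nop56, Snord49b (0.03), Snord82 (0.09) and Snord53 (-0.07). Among box H/ACA RNAs they were Snora52 (-0.03), Snora7a (-0.03) and Snora16a (-0.07). Of Cajal body RNAs, Scarna13 (U93), which acts on spliceosomal RNAs, read 10.54, 10.54 and 10.60 against 10.49, 10.46 and 10.47. All 3 H19 siRNA arrays were lower, with a difference of -0.08 (limma adjusted p = 0.599). Scarna17 (U91), another guide for spliceosomal RNA, differed by -0.05 and the dim Scarna8 by -0.05, both with overlapping groups. All 4 Cajal body probe sets had negative values.

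Probe sets listed under the host genes were set beside the snoRNAs. They were matched by symbol alone, and whether they lie at the snoRNA's own locus was not checked. By span in the RefSeq table, which was used without strand, 58 of the 60 probe sets lay within 43 genes, and the 2 of Snord118 lay within none. Of the 43 genes 31 were protein-coding and 12 were long noncoding RNAs, and 16 encoded ribosomal proteins. A host had a probe set of its own for 30 distinct members. Of these 24 hosts 10 had several, up to 14, and the one with the highest mean stood for the host. By limma 0 of these hosts passed the test, and 0 had an unadjusted p under 0.05. The host probe sets had a median log2 signal of 12.29. In 28 of the 30 pairs the snoRNA read lower than its host, so most pairs do not compare like signals. The snoRNA was more negative than its host in 22 of the 30 pairs, with a median of snoRNA minus host of -0.064. Both had the same sign in 16 pairs, the snoRNA was negative and the host positive in 12, and the reverse held in 2. By class the median was -0.074 for 14 box C/D pairs and -0.0588 for 15 box H/ACA pairs. Between arrays of the same group, the median of snoRNA signal minus host signal had an SD of 0.114. That SD is of signal levels, which vary widely between pairs, and does not measure the scatter of the -0.064. The values of the pairs were not recomputed with an array left out. The host of Snord47, Gas5, differed by 0.01, that of Snora3, Rpl27a, by -0.02 and that of Snora21, Rpl23, by 0.00. Snhg3, Snhg12 and the host of Snord49a had no single-symbol probe set to set beside their snoRNAs.

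**Figure D5:**
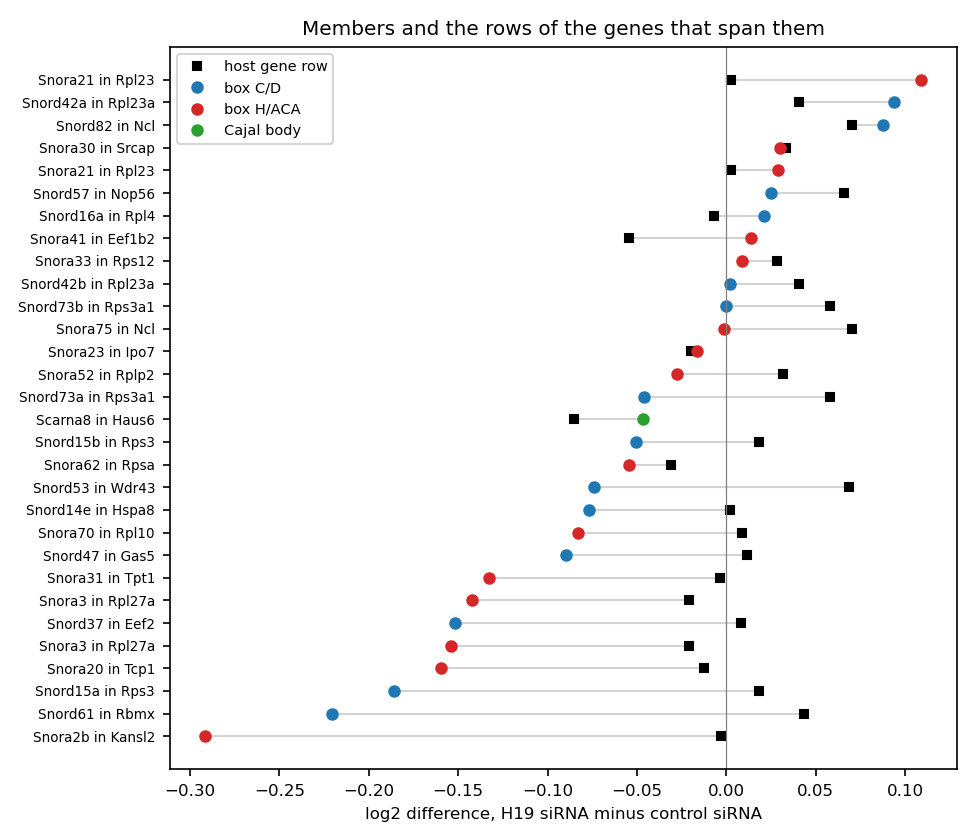
Log2 differences, H19 siRNA minus control, of 30 distinct snoRNA and Cajal body RNA probe sets (circles by class). Black squares, joined to them by a line, are the probe sets listed under the gene that spans each. Host values lie close to 0, and the snoRNA lies to the left of its host in 22 of the 30 pairs.

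Kind of host and shared hosts were described in the same way. Of 16 probe sets in noncoding hosts 13 were negative and 5 were lower at an unadjusted limma p under 0.05, and of 42 in protein-coding hosts 27 were negative and 2 were lower at that level. Over all probe sets 42.9% were negative and 3.66% were lower at that level, or 47% and 4.68% of those that were not dim. The kinds of host also differed in dim members, 1 of 16 in noncoding and 13 of 42 in protein-coding hosts. The 16 hold 2 identical, negative probe sets of Scarna17, and the 42 hold 2 identical, positive ones of Snora30. The 5 hold Snora73a and Snora73b, which are close in sequence and may not be independent. In Rpl13a both Snord33 and Snord35a differed by -0.12. In Ncl, the gene of nucleolin, Snord82 differed by 0.09 and Snora75 by 0.00. Across the 57 distinct probe sets, which share the same 6 arrays, the difference was related to signal with Pearson's r of 0.11 and to RNA length with r of -0.24. Across the 30 pairs the differences of snoRNA and host were related with r of 0.23. These correlations are weak and are given as descriptions.

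The proteins that bind and assemble snoRNAs did not pass the test. Of the 154 genes measured from all lists of the pathway 0 passed in limma, and the median difference was 0.019. At an unadjusted limma p under 0.05, 4 of the 154 were higher and 4 lower, against 4.97% and 3.66% of all probe sets, and 0 of the 8 were in the lists of binding, assembly or Cajal body proteins. The box C/D proteins (5 measured) had a median of 0.066, with Fbl, the methyltransferase fibrillarin, at 0.04 and the scaffold proteins Nop56 and Nop58 at 0.07 and 0.09. Snu13, which binds the C/D motif, was at -0.03. The box H/ACA proteins (6 measured) had a median of 0.031, with Dkc1, the pseudouridine synthase, at 0.04, and its partners Nhp2, Nop10 and Gar1 at 0.02, -0.08 and 0.09. Assembly and transport factors (19 measured) had a median of 0.028 and Cajal body genes (13 measured) one of 0.012, with the scaffold protein Coil at 0.02.

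Lists of snoRNA hosts and of ribosome biogenesis genes lay near 0 too. Protein-coding hosts (46 measured) had a median of 0.009 and noncoding hosts (9 measured) one of 0.034, with Rpl12 at 0.12 and Snhg17 at 0.09. Ribosome biogenesis genes (48 measured) had a median of 0.032, with 37 of 48 positive and 11 negative (22.9%). Over all probe sets 42.9% were negative, or 47% of those that were not dim. Nat10, an RNA acetyltransferase, and Nol6, a protein of the small subunit processome, each differed by 0.12 (limma adjusted p = 0.458 and 0.484). Imp3, a protein of the U3 particle that processes the ribosomal precursor, differed by -0.20 (limma adjusted p = 0.230) and was the only pathway gene to pass in any alternative, with an intensity trend and robust variance (adjusted p = 0.0289).

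Other small and structural noncoding RNAs were mostly negative as well. Of 12 measured, 9 were negative, against 42.9% of all probe sets, with a median of -0.068, and 0 passed the test. Rny1, a Y RNA bound by the Ro protein, read 8.48, 8.49 and 8.85 with control siRNA and 8.06, 7.65 and 8.12 with H19 siRNA, a difference of -0.66 (limma adjusted p = 0.386). Every H19 siRNA array was below every control, and replicate 2 was the lowest. Rnu3a, a gene of the box C/D RNA U3 that is not named as a Snord, differed by -0.26 (limma adjusted p = 0.576) with groups that did not overlap, and Malat1, a nuclear long noncoding RNA, by -0.20 (limma adjusted p = 0.407). The 305 probe sets named for 1 microRNA gene, of which 77.7% were dim, had a median of 0.013 and 44.6% negative values.

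A further 41 probe sets list a snoRNA together with other symbols and stood outside the 60. Of these, 24 list copies of Snord116, an imprinted brain-expressed box C/D family. All 24 were dim, at 4.99 to 5.49, with differences of 0.01 to 0.25. They held only 7 distinct profiles, so they are not 24 separate measurements. Of the other 17, 15 were negative, against 42.9% of all probe sets. Their differences were -0.24 to 0.08, and the smallest limma adjusted p was 0.397. These 17 held 15 distinct profiles, and 6 of the 17 were dim. The imprinted families Snord113, Snord114 and Snord115 had 0 probe sets in either form.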

How the data were processed

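The authors deposited log2 expression values per probe set, which per the submitters' processing notes were made by RMA in the Affymetrix Expression Console program. The genome build and software version were not given in the sources used here. RMA corrects background, equalises the arrays' distributions and summarises probes, which compresses differences near background. No detection calls or scanner intensities were used here, and 6 arrays limit precision.

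Symbols came from GEO's platform annotation, in which 21789 probe sets have 1 symbol, 1621 several and 12146 none. All 60 snoRNA and Cajal body RNA probe sets matched the RefSeq table (GRCm38.p6), which gave lengths and hosts. The host was the shortest other gene spanning the RNA, and strand was not checked although the rule for named genes asked for it. The brightest probe set under the host's symbol stood for it, without a check of that probe set's position.

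All 35556 probe sets were fitted with lmFit and eBayes (limma 3.58.1, R 4.3.3), H19 siRNA minus control, two-sided, without covariate or filter, with Benjamini-Hochberg adjustment. The script was tested on simulated data. Members, gene lists and alternatives were chosen with earlier results of these data known. Named RNAs are those with the 10 smallest p, the 6 brightest of each box class, the 4 brightest Cajal body probe sets, symbols whose own probe sets differ, and their hosts. Of the pathway lists the core proteins and the genes with an unadjusted p under 0.05 are named. Snora2b, Snora31, Snord14e, Snord22, Snord118, Snora75 and the RNAs of shared hosts were named after their values were seen. Alternatives were the variance model, filters on dim probe sets, scaling, the probe sets tested, array weights, the replicate number as a block, each array left out, and, added after seeing the data, identical probe sets counted once and the median of a host's probe sets.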

Additional observations from a re-analysis of the deposited data

How the results depend on the processing

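No snoRNA or Cajal body RNA passed an adjusted p of 0.05 under any alternative run, with smallest limma adjusted p-values from 0.139 (intensity trend and robust variance) to 0.748 (without control siRNA replicate 2), while calls among all probe sets ran from 0 with the replicate block to 104 with the trend. With the replicate number as a block, 4 members had an unadjusted limma p under 0.05 (6.8% of all probe sets), against 8 (8.63%). Same-numbered arrays did not deviate together (correlations of -0.114 to 0.00122). No pairing by number was seen, but whether the numbers mark shared cultures or batches cannot be told from 3 pairs. The trend called 1 pathway gene (Imp3), against 0. Filtering at the array median gave a class gap of 0.0790, against 0.0086, because only probe sets that are not dim then enter. Leaving out 1 array gave 2 to 10 members with an unadjusted p under 0.05 (6.29% to 9.66% of all probe sets), 15 to 23 whose groups did not overlap (23.4% to 28.1% of all), a box C/D median of -0.0999 to 0.0011, a box H/ACA median of -0.0661 to -0.0277 and a class gap of -0.0375 to 0.0366. After centring each array on its median the class medians were -0.0682 and -0.0768, against -0.0082 for all probe sets. Of 362 values of single named RNAs under the alternatives, 11 changed sign, all with 1 array left out and all of RNAs that did not pass: these ranged from -0.0580 to 0.130 for Snord49b, -0.194 to 0.0361 for Scarna8, -0.145 to 0.0315 for Snord58b, -0.143 to 0.0223 for Snord53, -0.0474 to 0.0127 for Snora7a, -0.0174 to 0.0605 for Snord57 and -0.0296 to 0.102 for Snora21 (10564520). With the median of all of a host's probe sets, the median of snoRNA minus host was -0.0631, against -0.064. Depth is not defined for arrays, and dim probe sets have the least signal over background.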
